A study of Mus musculus with 4 samples.

Results

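The CCN family of secreted matricellular proteins has 6 genes, and all 6 were found by symbol among the 33641 genes of the data under their older names. They are Cyr61 (Ccn1), Ctgf (Ccn2), Nov (Ccn3), Wisp1 (Ccn4), Wisp2 (Ccn5) and Wisp3 (Ccn6). RNA was sequenced from 4 libraries of cardiac fibroblasts isolated from wild-type C57BL/6J mice aged 12 weeks: 2 libraries of cells given 10 ng/ml TGFbeta, a growth factor that drives fibroblasts toward contractile, matrix-producing myofibroblasts, and 2 of cells given vehicle. All cells had also been fed 4-thiouridine, a form of uridine that light can couple to nearby protein, 20 h and again 4 h ahead of irradiation at 368 nm. The series design describes RNA recovered with HuR (the RNA-binding product of Elavl1), whereas the sample labels describe total RNA, so a level on HuR and a level in the cell cannot be told apart here. The labels do not say whether the 2 libraries of a group came from separate animals or cultures, and p-values measure only the spread between these samples.

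CCN proteins act outside the cell as modular adaptors. Each has an IGFBP-like, a von Willebrand factor type C and a thrombospondin type 1 module, and all but Wisp2 add a C-terminal cystine knot. Through these modules they bind integrins, heparan sulphate proteoglycans, matrix proteins and growth factors, and Ctgf in particular is a long-known target of TGF-beta in fibroblasts. HuR binds U-rich and AU-rich stretches, mostly in 3′ untranslated regions (UTRs), and is known for stabilising the RNAs it binds.

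Because the study concerns HuR, the 29-base stretch with most copies of an AU-rich motif is shown for each family member that had one (the first such stretch where several tied). The motif ATTTA was searched on the transcript strand only, in the 3′ UTR of the GENCODE transcript with the longest coding region, in build GRCm38. Copies of ATTTA, which may overlap, are in capitals.
Wisp1, chr15:66920656-66920684, plus strand: aaatggggatctATTTAgtagtggtaaac
Ctgf, chr10:24597694-24597722, plus strand: agtagcacattaATTTAaatctgtgtttt
Cyr61, chr3:145646994-145647022, minus strand: gaATTTATTTAtaaaattaatcATTTAat
Nov, chr15:54752739-54752767, plus strand: agagcaaATTTAtataaATTTAagtcaca
The Cyr61 stretch held 3 copies, the Nov stretch 2, and those of Wisp1 and Ctgf 1 each. Over the whole 3′ UTR, Wisp1 had 4 copies in 3747 bases, Ctgf 2 in 1067, Cyr61 5 in 690 and Nov 6 in 1534. Wisp2 had 0 in 709 bases and Wisp3 0 in 200 bases. At least 1 ATTTA was present in 65.9% of the 13433 tested genes with a 3′ UTR of at least 30 bases. Per kilobase, the Wisp1 value of 1.07 and the Ctgf value of 1.87 were reached or exceeded by 53.3% and 36.9% of these genes, and the Cyr61 value of 7.25 by 2.66%.

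The U-rich motif TTTNTTT, searched in the same way and free to overlap ATTTA, is in capitals in the densest stretch of the 2 members called higher below.
Wisp1, chr15:66922813-66922841, plus strand: aagacttgTTTTTTTTTTTTTactcaaag
Ctgf, chr10:24598261-24598289, plus strand: taaagtcaTTTGTTTTTGTTTtaagtgct
The Wisp1 3′ UTR held 12 overlapping copies, of which 7 lay in the run shown, and that of Ctgf held 3. Cyr61 had 4, Nov 7, and Wisp2 and Wisp3 0 each. At least 1 copy was present in 65.3% of the tested genes, and 12 or more in 15.1%. The Wisp1 3′ UTR is long, its length being reached or exceeded by 7.91% of these genes. Per kilobase, its 3.20 copies were reached by 33.4% and the 2.81 of Ctgf by 37.1%. Cyr61 and Nov had more per kilobase, at 5.80 (reached by 17.4%) and 4.56 (reached by 23.5%). These matches describe letters only and do not show binding.

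With TGFbeta, Wisp1 rose 6.22-fold and Ctgf 2.38-fold, and the leading member of the family differed between the groups. Ctgf had the highest level of the family in both TGFbeta libraries, and Wisp2 in both vehicle libraries. Cyr61 and Wisp2, both abundant, differed little and did not pass the test, Nov was high in 1 TGFbeta library only, and Wisp3 was close to 0 in all 4 libraries. Levels are in TPM, a length-corrected abundance with the same total of 1000000 in each library, and they are relative to all other RNA. Levels of different genes are set side by side as levels in the libraries. If the libraries hold RNA recovered with HuR, differences between genes also depend on that recovery. In bulk RNA, fewer cells of a type and less RNA per cell cannot be told apart.

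**Figure D1:**
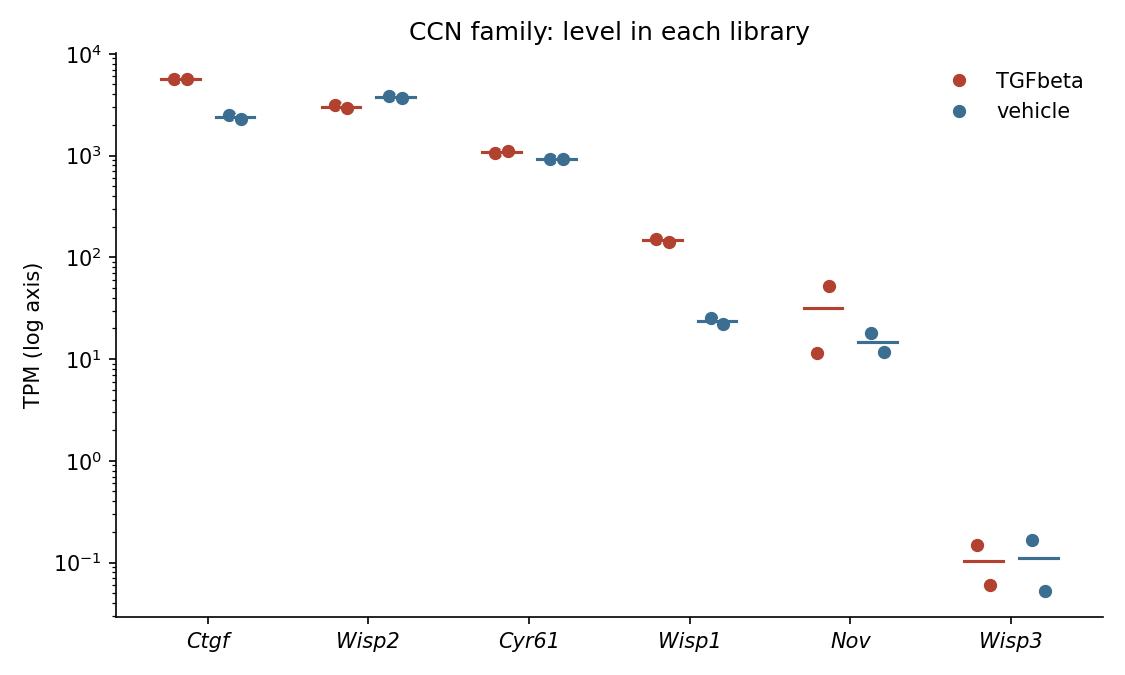
Level of each CCN gene in TPM on a log axis, with 1 point per library and a line at the mean of 2, for TGFbeta and vehicle. The Wisp1 points are at 153 and 141 TPM with TGFbeta, against 25.3 and 22.0 TPM with vehicle, while those of Nov overlap between the groups.

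Changes were tested with limma on log2(TPM + 1) over the 15815 genes with a mean of at least 1 TPM, and a gene was called at an adjusted p under 0.05 (Benjamini-Hochberg over all tested genes). Of the 5 family members tested, 2 were called higher and 0 lower, where 1.54% of all tested genes were called higher and 4.38% lower. For 4 of the 5 the libraries of the groups did not overlap, 3 being higher and 1 lower with TGFbeta; this was the case for 55.3% of all tested genes, 15.5% higher and 39.8% lower. Nov was the exception, and Wisp3 was below the minimum level. Over the tested genes the log2 change had a median of -0.13, which became 0.02 with median scaling and with quantile normalization.

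Wisp1 encodes a protein first described as induced by Wnt1 and known to promote fibroblast proliferation (ENSMUSG00000005124.10, GRCm38 chromosome 15, 66891320 to 66923201, plus strand). It had 153 and 141 TPM in the TGFbeta libraries, against 25.3 and 22.0 TPM in the vehicle libraries. Both TGFbeta libraries were thus at least 5.58 times as high as either vehicle library, whereas libraries of 1 group differed by at most 1.15 times. The log2 change was 2.59 (SE 0.14, 95% interval 2.24 to 2.93, limma adjusted p = 0.00312). It was the seventh smallest p-value of the 15815, and 0.24% of tested genes had a larger absolute log2 change. In order of abundance, Wisp1 ranked 1052 and 1187 in the TGFbeta libraries, against 6524 and 6767 in the vehicle libraries. Of 14 alternatives, 11 kept the call. Leaving out vehicle 1 gave 2.69 with a limma adjusted p of 0.0828, leaving out vehicle 2 gave 2.49 with 0.0924, and a test of every gene above 0 gave a limma adjusted p of 0.0590.

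Ctgf encodes the profibrotic cofactor connective tissue growth factor (ENSMUSG00000019997.11, chromosome 10, 24595442 to 24598683, plus strand). It had 5637 and 5698 TPM in the TGFbeta libraries, against 2485 and 2285 TPM in the vehicle libraries. The groups did not overlap, and the TGFbeta libraries differed from each other by 1.01 times. Its mean was 5667 ± 43.1 TPM with TGFbeta and 2385 ± 141 TPM with vehicle (SD, n = 2 each). The log2 change was 1.25 (SE 0.17, 95% interval 0.83 to 1.67, limma adjusted p = 0.0200). Ctgf was among the most abundant RNAs of every library, at ranks 8 and 7 with TGFbeta and 27 and 30 with vehicle. Its call did not survive the loss of any 1 library (limma adjusted p = 0.0609 without TGFbeta 1, 0.0621 without TGFbeta 2, 0.175 without vehicle 1 and 0.248 without vehicle 2). A test of every gene above 0 ended it too (limma adjusted p = 0.112). Its log2 change ran from 1.07 to 1.41 over all alternatives. On the opposite strand, 1667 bases of the antisense gene Gm15270 overlap Ctgf. Whether counting used strand is not given in the sources used here, so reads from both genes could have been counted as Ctgf.

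The intervals of the Wisp1 and Ctgf changes did not overlap, with the lowest Wisp1 bound at 2.24 and the highest Ctgf bound at 1.67 on the log2 scale. In each library Ctgf RNA still exceeded Wisp1 RNA by far, 36.9 and 40.4 times with TGFbeta and 98.3 and 103.9 times with vehicle. The difference between these ratios was not tested.

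**Figure D2:**
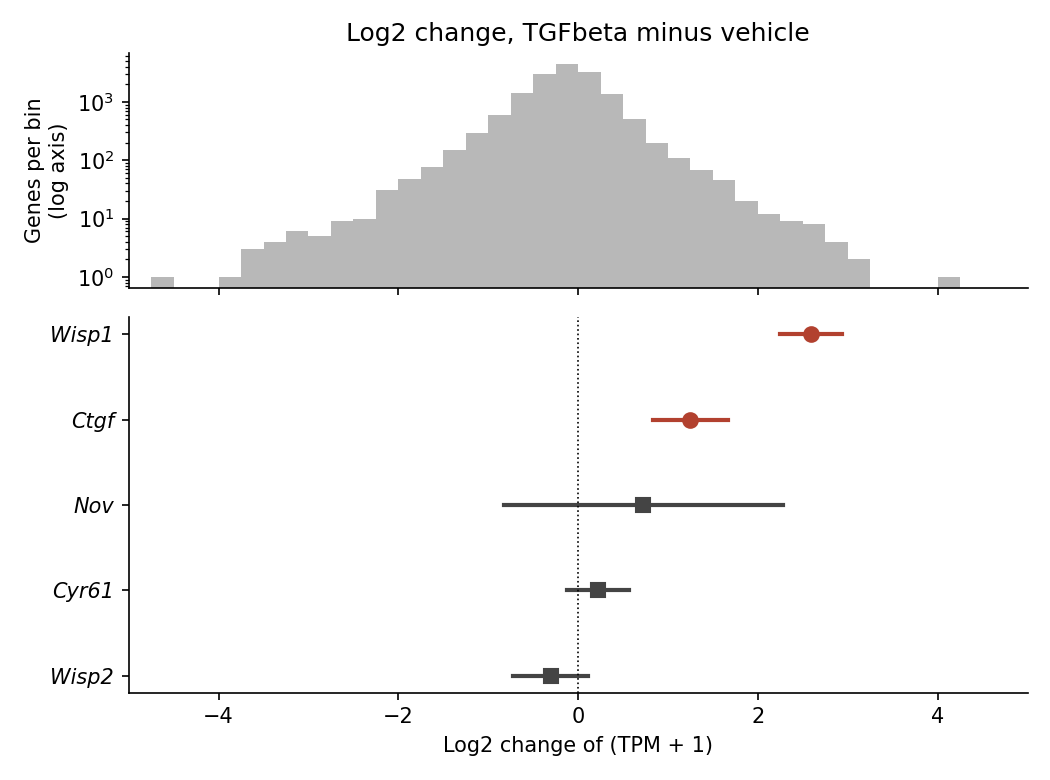
Upper panel, number of tested genes per 0.25 log2 units of change, TGFbeta minus vehicle, on a log axis. Lower panel, log2 change of the 5 tested CCN genes with its 95% interval from the limma fit, where red circles mark called genes and grey squares the others; the Wisp1 and Ctgf intervals lie above 0, and those of Nov, Cyr61 and Wisp2 include 0.

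Cyr61 encodes an adhesive, angiogenic protein that in mouse wounds also limits fibrosis through fibroblast senescence (ENSMUSG00000028195.4, chromosome 3, 145646976 to 145649981, minus strand). It had 1055 and 1100.4 TPM in the TGFbeta libraries, against 935 and 916 TPM in the vehicle libraries. The groups did not overlap, but the gap was small. The log2 change was 0.22 (SE 0.14, 95% interval -0.12 to 0.56, limma adjusted p = 0.399), so that its interval allows ratios from 0.917 to 1.48. After median scaling the change was 0.38 (limma adjusted p = 0.219).

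Wisp2 encodes the member without the cystine knot module, and in mouse heart it is described as opposing fibrosis (ENSMUSG00000027656.7, chromosome 2, 163820861 to 163833146, plus strand). It had 3125 and 2932 TPM in the TGFbeta libraries, against 3836 and 3655 TPM in the vehicle libraries. Both TGFbeta libraries were lower than both vehicle libraries. The log2 change was -0.31 (SE 0.17, 95% interval -0.72 to 0.11, limma adjusted p = 0.330), which allows ratios from 0.607 to 1.08. Its size depended on the scaling, at -0.14 after median scaling (limma adjusted p = 0.717) and -0.69 after quantile normalization (limma adjusted p = 0.0815). Wisp2 ranked 25 and 31 in abundance with TGFbeta, against 12 and 14 with vehicle.

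Nov encodes a growth-restraining member that in mouse kidney opposes Ctgf (ENSMUSG00000037362.8, chromosome 15, 54745702 to 54754039, plus strand). It had 11.4 and 52.4 TPM in the TGFbeta libraries, against 17.9 and 11.8 TPM in the vehicle libraries. TGFbeta 2 was the highest library and TGFbeta 1 the lowest, so the groups overlapped, and the TGFbeta libraries differed from each other by 4.58 times. The log2 change was 0.73 (SE 0.64, 95% interval -0.83 to 2.28, limma adjusted p = 0.538). Without TGFbeta 2 it was -0.32 (limma adjusted p = 0.625), and without TGFbeta 1 it was 1.78 (limma adjusted p = 0.0690).

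Wisp3 encodes a member known from human cartilage disease (ENSMUSG00000062074.7, chromosome 10, 39150970 to 39163794, minus strand). It had 0.149 and 0.0602 TPM in the TGFbeta libraries, against 0.168 and 0.0522 TPM in the vehicle libraries. These levels were too low for the test, and the depth needed to tell them from 0 is unknown. The overlapping gene Tube1 on the opposite strand shares 1573 bases with it and had 1.88 and 1.52 TPM with TGFbeta and 2.57 and 1.95 TPM with vehicle.

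Among the levels with TGFbeta, the order was Ctgf, Wisp2, Cyr61, Wisp1, Nov and Wisp3. With vehicle it was Wisp2, Ctgf, Cyr61, Wisp1, Nov and Wisp3. Neighbours in each order did not overlap between the libraries of a group. Summed over the family, the level was 9981 and 9924 TPM in the TGFbeta libraries, against 7299 and 6889 TPM in the vehicle libraries, or 0.998% and 0.992% of all TPM against 0.730% and 0.689%. Ctgf made up 56.5% and 57.4% of that sum with TGFbeta and 34.0% and 33.2% with vehicle. Wisp2 made up 31.3% and 29.5% with TGFbeta and 52.6% and 53.0% with vehicle. Cyr61 contributed 10.6% and 11.1% with TGFbeta, against 12.8% and 13.3% with vehicle. Wisp1 contributed 1.53% and 1.42% with TGFbeta, against 0.346% and 0.319% with vehicle, so the member with the largest fold change was a small part of the family's RNA in every library.

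**Figure D3:**
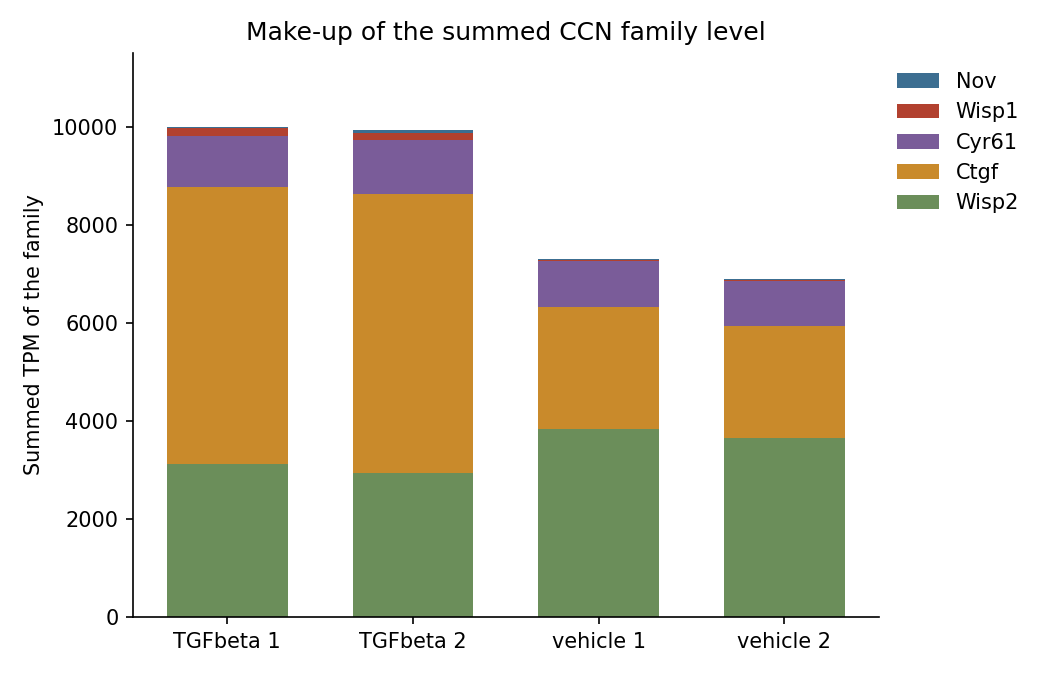
Summed TPM of the CCN family in each library, stacked by member (Wisp3 is too low to show). Bars reach 9981 and 9924 TPM with TGFbeta, against 7299 and 6889 TPM with vehicle, and the Ctgf segment is the largest with TGFbeta while the Wisp2 segment is the largest with vehicle.

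The coding sequences show how the members differ. Translated from the same transcripts, Wisp2 had 251 residues and the other members 348 to 379. Cysteines, which hold the modules together, made up 10.0% to 11.6% of residues in all 6. Cyr61 and Ctgf were the most alike pair, with 52.0% identical residues, and Wisp1 shared 42.6% with Wisp3, 45.1% with Ctgf and 39.5% with Wisp2. No 31-base word was shared between transcripts of any 2 members, and in Wisp1, Wisp2, Cyr61 and Wisp3 0 of these words occurred in a transcript of another gene. In Ctgf 0.169% and in Nov 1.38% of words did. Words were compared on the transcript strand only, so sequence shared with a gene on the opposite strand was not counted.

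Genes were ranked by how close their profile lay to that of a family member, as the Euclidean distance between log2(TPM + 1) values over the 4 libraries, each profile centred on its own mean. The 10532 genes compared had a mean of at least 5 TPM. Among the genes nearest to Wisp1 were Kcnj15, a potassium channel gene (distance 0.166), Acan, which encodes aggrecan (0.197), Rflnb, which encodes a filamin-binding protein (0.230), and Notch4, a Notch receptor gene (0.335). Acan had 13.7 and 10.7 TPM in the TGFbeta libraries, against 1.22 and 0.827 TPM in the vehicle libraries. Nearest to Ctgf were Tnfrsf12a, which encodes the receptor of the cytokine TWEAK (0.0638), Vcan, which encodes the proteoglycan versican (0.109), and Dok1, an adaptor gene (0.123). Tnfrsf12a had 376 and 379 TPM with TGFbeta, against 174 and 153 TPM with vehicle. Nearest to Cyr61 were Hsp90ab1, Emp2 and Sec13 (0.0190 to 0.0307), and nearest to Wisp2 were Kat8, Eid2b and Zfp287 (0.0177 to 0.0287), all genes that differed little between groups and were not called. With 4 libraries many genes share any such profile. All these genes, and those named for Nov below, were picked by profile, so how they differ between libraries follows from the choice.

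Nearest to Nov were the chemokine gene Cxcl12 (distance 0.408), the collagen gene Col28a1 (0.472) and Rgs5, a gene of pericytes (0.535), and each was highest in TGFbeta 2. Cxcl12 had 86.6 and 484 TPM with TGFbeta, against 188 and 126 TPM with vehicle. Rgs5 had 1.95 and 13.5 TPM with TGFbeta, against 2.26 and 2.47 TPM with vehicle. The list of 6 smooth muscle and pericyte markers that holds Rgs5 summed to 357 and 330 TPM with TGFbeta, against 305 and 312 TPM with vehicle. Most of that sum was Pdgfrb, which had 327 and 294 TPM with TGFbeta, against 285 and 294 TPM with vehicle. The other 5 markers summed to 29.9 and 35.9 TPM with TGFbeta, against 20.1 and 18.1 TPM with vehicle. These 5 include Rgs5, which was picked for its likeness to Nov, so their sum is no separate view of the Nov pattern. Cspg4 was highest in TGFbeta 1, with 22.5 and 16.7 TPM with TGFbeta, against 12.4 and 10.7 TPM with vehicle. Myh11 had 4.62 and 4.92 TPM with TGFbeta, against 4.52 and 3.92 TPM with vehicle. Kcnj8 and Abcc9 were under 1 TPM in every library. The part of other cells in the Nov level was not tested.

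**Figure D4:**
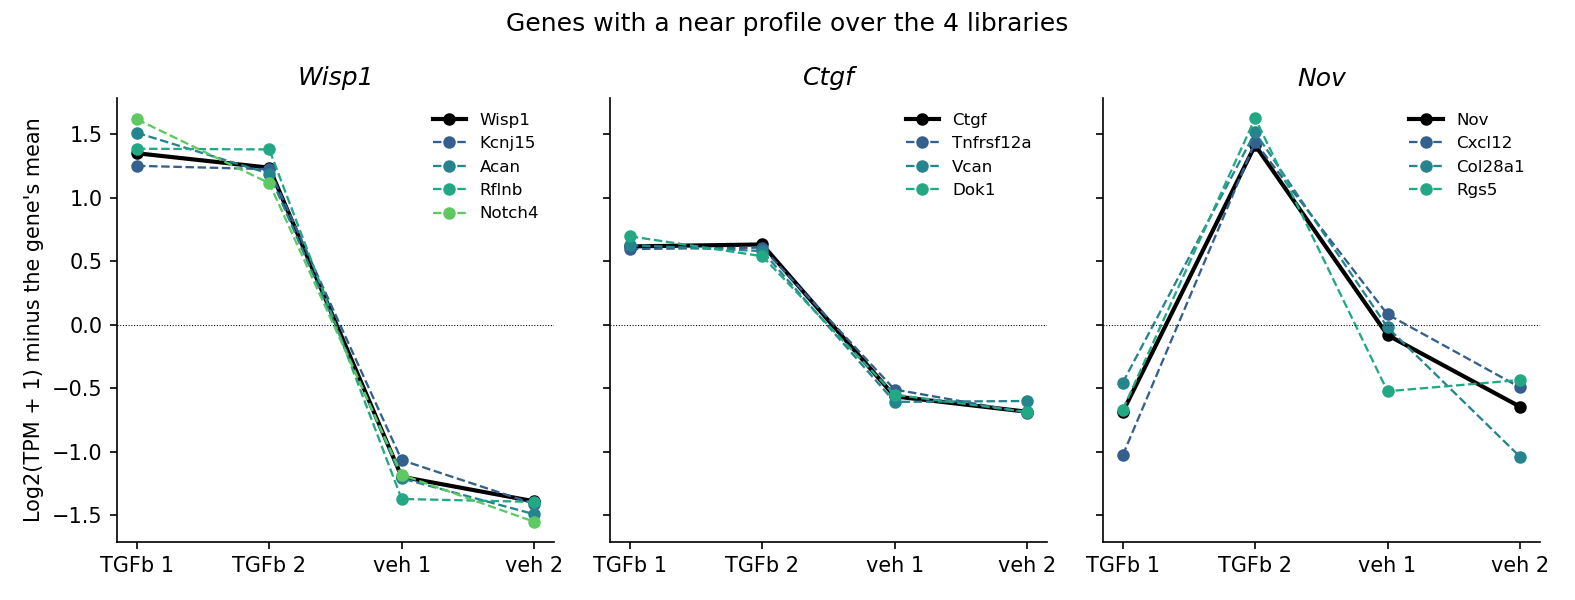
Log2(TPM + 1) minus the gene's own mean in each library (TGFb is TGFbeta, veh is vehicle), for Wisp1, Ctgf and Nov in black and genes near to each in colour. The Wisp1 and Ctgf groups are high in both TGFbeta libraries, and the Nov group is high in TGFbeta 2 alone.

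All 8 fibroblast markers were found and tested, with sums of 20538 and 19315 TPM in the TGFbeta libraries, against 23345 and 19698 TPM in the vehicle libraries. Of these 8, 0 were called higher and 2 lower, beside 1.54% and 4.38% of all tested genes. The median log2 change of the 8 was -0.41, against -0.13 over all genes. The 2 called lower were Pdgfra, a growth factor receptor gene, and Tcf21, a transcription factor gene, both named here after their values were seen. Pdgfra had 55.5 and 57.8 TPM with TGFbeta, against 169 and 139 TPM with vehicle (log2 change -1.42, limma adjusted p = 0.0106). Tcf21 had 283 and 255 TPM with TGFbeta, against 600.4 and 564 TPM with vehicle (-1.11, limma adjusted p = 0.0148). Col1a1 went the other way but was not called (0.91, limma adjusted p = 0.0958). Its levels were 6221 and 4272 TPM with TGFbeta, against 3148 and 2392 TPM with vehicle. Col1a2 was also higher and not called (0.48, limma adjusted p = 0.236). The remaining fibroblast markers had negative changes and were not called. Marker sums of cardiomyocytes, endothelial cells, leukocytes, epicardium and glia ran from 1.76 to 52.8 TPM with TGFbeta and from 1.51 to 111 TPM with vehicle. The 6 cardiomyocyte markers summed to 50.6 and 52.8 TPM with TGFbeta, against 69.0 and 111 TPM with vehicle. Most of this was Tnnt2, with 35.2 and 34.6 TPM with TGFbeta, against 47.0 and 81.4 TPM with vehicle. Tnni3 had 7.62 and 10.8 TPM with TGFbeta, against 14.8 and 17.6 TPM with vehicle, and Nppa had 7.32 and 6.77 TPM with TGFbeta, against 6.05 and 10.6 TPM with vehicle. Ryr2 was under 1 TPM, and Myh6 and Actc1 were at or under 0.394 TPM, in all 4 libraries. The part of these cells in the results was not tested. Elavl1 had 51.2 and 54.7 TPM with TGFbeta, against 51.1 and 45.7 TPM with vehicle, and did not pass the test (log2 change 0.13, 95% interval -0.21 to 0.47, limma adjusted p = 0.621).

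Receptors described as binding CCN proteins were mostly not called: of 19 tested, 0 rose, 2 fell and 17 did not pass, beside 5.92% of all genes called. The median log2 change of the 19 was -0.13, against -0.13 over all genes. Fgfr2, a fibroblast growth factor receptor gene, fell to 15.6 and 23.4 TPM with TGFbeta, against 53.3 and 48.5 TPM with vehicle (log2 change -1.37, limma adjusted p = 0.0260). Itga2b, the platelet integrin alpha chain gene, fell to 10.2 TPM in both TGFbeta libraries, against 18.5 and 24.3 TPM with vehicle (-0.99, limma adjusted p = 0.0400). It was no longer called with median scaling (limma adjusted p = 0.0720) or quantile normalization (limma adjusted p = 0.0777), nor without an intensity trend (limma adjusted p = 0.0559). The third largest absolute change was that of Itgad, at -0.73 (limma adjusted p = 0.470).

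Of 26 matrix proteins, growth factors and proteases described as binding or cleaving CCN proteins, 18 were tested. Of these, 3 were called higher, 2 were called lower and 13 were not called. The 5 called are 27.8% of those tested, beside 5.92% of all genes (1.54% higher, 4.38% lower). Like the other lists, this one was chosen with earlier results of these data known, so the share is no independent result about CCN partners. The median log2 change of the 18 was -0.10, against -0.13 over all genes. Acan, also one of the genes nearest to Wisp1, rose by 2.70 on the log2 scale (limma adjusted p = 0.00633). Igf1, the gene of insulin-like growth factor 1, had 117 and 125 TPM with TGFbeta, against 37.3 and 43.1 TPM with vehicle (1.57, limma adjusted p = 0.00766). Tnfrsf11b, which encodes the decoy receptor osteoprotegerin, had 58.6 and 76.2 TPM with TGFbeta, against 30.7 and 15.6 TPM with vehicle (1.56, limma adjusted p = 0.0462). It missed the threshold with a pseudocount of 0.1 (limma adjusted p = 0.0502), with robust moderation (limma adjusted p = 0.0582) and without a trend (limma adjusted p = 0.0713). Bmp4, the gene of a bone morphogenetic protein that Ctgf binds, fell to 59.0 and 73.7 TPM with TGFbeta, against 229 and 232 TPM with vehicle (-1.79, limma adjusted p = 0.00690). Slit3, which encodes a guidance protein, fell to 33.3 and 32.8 TPM with TGFbeta, against 57.7 and 62.9 TPM with vehicle (-0.85, limma adjusted p = 0.0268), though not with median scaling (limma adjusted p = 0.0532) or without a trend (limma adjusted p = 0.0504).

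Of 30 regulators described as acting on CCN genes, 28 were tested. Of these, 1 was called higher, 1 was called lower and 26 were not called. The 2 called are 7.14% of those tested, a share near the 5.92% of all genes. The median log2 change of the 28 was -0.22, against -0.13 over all genes. The gene called higher was Fosl1, an AP-1 subunit (0.86, limma adjusted p = 0.0470). It had 10.3 and 9.86 TPM with TGFbeta, against 4.93 and 5.33 TPM with vehicle. The gene called lower was Smad3, which carries the TGF-beta signal to the nucleus (-1.09, limma adjusted p = 0.0316). It had 27.0 and 21.5 TPM with TGFbeta, against 59.1 and 46.8 TPM with vehicle. Its call ended without a trend (limma adjusted p = 0.0537). Tcf7l1, a partner of beta-catenin, had the third largest absolute change at -0.71 (limma adjusted p = 0.0601), and it passed in a test of protein-coding genes (limma adjusted p = 0.0267), with a minimum mean of 5 TPM (limma adjusted p = 0.0300) and with robust moderation (limma adjusted p = 0.0454). Wnt1, after which the Wisp genes are named, was below 1 TPM on average.
Over the 3 lists 9 genes were called. Without TGFbeta 1 there remained 3 of them, without TGFbeta 2 there remained 4, and 0 were called both without vehicle 1 and without vehicle 2.

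**Figure D5:**
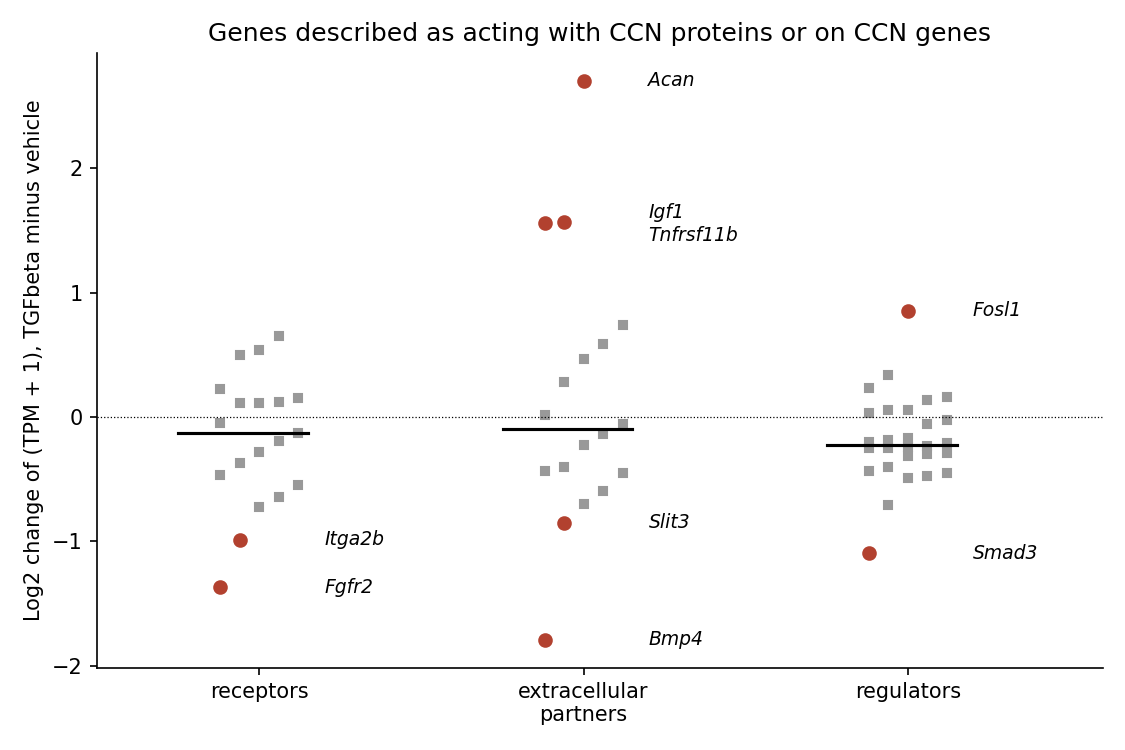
Log2 change, TGFbeta minus vehicle, of each tested gene in the lists of receptors, extracellular partners and regulators. Red circles with names mark called genes, grey squares the others, and black lines the medians of -0.13, -0.10 and -0.22.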

How the data were processed

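Each library was given as 1 table of values per gene symbol, which the file headers label TPM. How reads were aligned and quantified, and on which build, is not given in the sources used here. Since TPM drops the number of reads, depth is unknown and intervals for counting error cannot be had. From the deposited TPM, log2(TPM + 1) of genes averaging at least 1 TPM was tested with limma 3.58.1 in R 4.3.3 (lmFit, eBayes with an intensity trend, two-sided, Benjamini-Hochberg), with treatment as the only term, and the procedure was tested on simulated data. Intervals are 95% intervals of that fit. A log2 change understates that of genes with low TPM.

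The family members and the gene lists were chosen with earlier results of these data known. Named genes are all 6 members, Elavl1, every called member and the 3 largest absolute changes of each list, and the genes nearest in profile (5 for Wisp1 and 3 for each other tested member), leaving out symbols that merely name a clone or a gene model; some genes that these rules name are not reported here.

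Positions, untranslated regions and coding sequences come from GENCODE M21 (GRCm38), to which 32439 symbols were matched, older symbols through RefSeq synonyms. Transcripts were the longest by coding length, and identity came from global alignment (BLOSUM62). The alternatives were 2 pseudocounts (0.1 and 5), 2 filters (at least 5 TPM on average, every gene above 0), 2 scalings, a robust eBayes and one with no trend, a block for the replicate number, protein-coding genes alone, and each library left out.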

Additional observations from a re-analysis of the deposited data

How the results depend on the processing

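All 5 tested family members kept their direction under the 14 alternatives, except Nov, which turned to -0.32 without TGFbeta 2 and ran up to 1.78 over the libraries left out. Testing every gene above 0 left 0 genes called by limma (0 higher, 0 lower, 4348 at an unadjusted p under 0.05), and so 0 family members, receptors, partners and regulators; Wisp1 at 2.59 and Ctgf at 1.25 were then not called. With 1 library left out, its partner stands alone and its spread is taken from the complete group. Between 0 and 203 genes were then called (0 to 65 higher, 0 to 138 lower), with 0 both without vehicle 1 and without vehicle 2 (limma, 3033 and 2407 at an unadjusted p under 0.05). Called family members then numbered 0 to 1, receptors 0 to 1, partners 0 to 3 and regulators 0. Wisp1 ran from 2.49 to 2.69, Ctgf from 1.19 to 1.31, Cxcl12 from -0.82 without TGFbeta 2 to 1.64 without TGFbeta 1, and Rgs5 from -0.19 to 2.11 likewise. Against 936 genes called (244 higher, 692 lower), 602 were called without an intensity trend (437 lower) and 1731 among protein-coding genes alone (431 higher, 1300 lower). Median scaling gave 410 higher and 399 lower, and quantile normalization gave 333 higher and 401 lower. Without a trend, 1 receptor, 3 partners and 1 regulator were called, 8 partners among protein-coding genes alone, and 1 receptor after quantile normalization. The cause of these shifts was not tested.

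Same-numbered libraries showed no shared deviation: their deviations from the group means had a Pearson r of -0.05 across the tested genes. Whether they shared an animal or a culture cannot be told from this value. With the replicate number as a block, 631 genes were called, 186 higher and 445 lower, among them 2 family members, 1 receptor, 4 partners and 1 regulator; Wisp1 (limma adjusted p = 0.00259) and Ctgf (limma adjusted p = 0.0206) stayed called, while Itga2b (limma adjusted p = 0.0556), Slit3 (limma adjusted p = 0.0548) and Fosl1 (limma adjusted p = 0.0882) did not. The unknown depth limits what can be said of Wisp3, and 2 libraries per group limit every test.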
